A study of Mus musculus with 45 samples.

Results

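Krt13, Snap91 and Nlrp14 are 3 of the 55401 genes in the expression tables, taken by gene symbol, or by gene identifier where a table gives no symbol. They were chosen by their rise with UNC0638 in Dppa4 knockout mouse embryonic stem cells (mESCs), so their levels in the knockout libraries describe that choice and carry no test. EHMT1 and EHMT2 are histone methyltransferases that place repressive methyl marks on lysine 9 of histone H3, and in mESCs they keep genes of other cell types and of the early embryo silent. UNC0638 inhibits the catalytic activity of both enzymes. DPPA4 works with DPPA2 at chromatin, and the pair is known for switching on genes of the 2-cell embryo, such as the Zscan4 cluster.

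In the Dppa4 experiment, wild-type (WT) mESCs of the line WTJ1 and DPPA4KO mESCs (KO, made with CRISPR/Cas9) were grown in FBS/LIF and received DMSO or UNC0638 for 48 h. Each of the 4 groups held 3 libraries, from 3 independent clones per genotype by the labels. The other 33 libraries came from BL6/129 mESCs with a degradation tag on EHMT2 (EHMT2-dTAG-mcherry), given DMSO or the degrader dTAG-13. A time course has both treatments at 24 h and 7 d, from 3 clones. A washout experiment, also from 3 clones, has both at 15 d and a group named Recovery, where DMSO replaced the degrader for the last 8 d after 7 d of exposure. A sorted experiment treated a MERVL-GFP reporter line for 72 h and separated cells without GFP, named mESC, from those with GFP, named 2CLC because they resemble the 2-cell embryo. By the methods the mESCs were grown on feeder cells, so part of the RNA of unsorted cells can come from feeders, and in bulk RNA a change in the number of expressing cells and a change per cell cannot be told apart.

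The libraries of the Dppa4 experiment held between 8399885 and 12710949 reads in genes. Dppa4 was at 0 in all 6 KO libraries and between 700.4 and 920.5 normalized counts in the 6 WT libraries, as labelled. A normalized count is the number of reads divided by the size factor of the library. The sum of 8 pluripotency markers lay between 45430 and 66250 normalized counts in every library. Zscan4c, a marker of 2-cell-like cells, was at 0 in all KO libraries and ranged from 31.4 to 1855 in WT. The libraries of a group differed beyond the sampling noise of their reads, and the KO library with UNC0638 of replicate 3 differed most from its group.

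Krt13 (ENSMUSG00000044041.4) encodes a type I keratin of the layers above the base of stratified epithelia such as the tongue and oesophagus. It lies on the minus strand at chr11:100117327-100121566 (GRCm38, GENCODE vM21) within a keratin cluster, with 8 exons in the transcript with most. Snap91 (ENSMUSG00000033419.16) encodes AP180, a clathrin assembly protein of synapses that helps to form coated vesicles from the membrane. It spans 114732 bases of the minus strand at chr9:86765923-86880654, with 30 exons in the transcript with most. Nlrp14 (ENSMUSG00000016626.10) encodes an NLR family protein of germ cells and oocytes that is needed by the early embryo. It lies on the plus strand at chr7:107166990-107198102, with 11 exons in the transcript with most.

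The promoters of Krt13 and Snap91, which are shown because both genes were chosen for the same response, are unlike in base composition. RefSeq (GRCm38.p6) gives 300 bases around each start site, of which 250 lie before it and 50 after it. They are printed 5′ to 3′ on the minus strand, chr11:100121517-100121816 for Krt13 and chr9:86880659-86880958 for Snap91, with CpG dinucleotides in capitals.
Krt13: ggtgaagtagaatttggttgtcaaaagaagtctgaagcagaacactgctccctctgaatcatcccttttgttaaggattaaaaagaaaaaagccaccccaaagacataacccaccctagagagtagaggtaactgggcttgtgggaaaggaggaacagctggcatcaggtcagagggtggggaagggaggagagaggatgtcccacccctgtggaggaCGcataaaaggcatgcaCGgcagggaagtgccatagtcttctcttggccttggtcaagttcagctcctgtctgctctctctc
Snap91: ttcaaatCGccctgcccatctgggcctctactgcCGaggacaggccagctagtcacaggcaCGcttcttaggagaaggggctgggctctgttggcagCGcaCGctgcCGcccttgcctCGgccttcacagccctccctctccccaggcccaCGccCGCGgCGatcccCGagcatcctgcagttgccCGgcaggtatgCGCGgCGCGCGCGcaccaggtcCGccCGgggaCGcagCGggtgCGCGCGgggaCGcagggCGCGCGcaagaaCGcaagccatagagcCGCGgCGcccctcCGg
The Krt13 window held 2 CpGs and 50.3% G and C, and 14.1% of the 32851 promoters of 300 bases had fewer CpGs. A further Krt13 start site has a window with 5 CpGs at chr11:100120528-100120827. The Snap91 window held 35 CpGs and 72.0% G and C, and 93.0% of promoters had fewer CpGs. Of the motifs searched on both strands, CACGTG (in 7.15% of all promoters), TTCCCGC (4.6%) and TATAAA (13.6%) were in none of these 3 windows, and CCAAT (37.4%) was in the window of the further Krt13 start only. Nlrp14 has no entry in the promoter table.

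In WT cells, the libraries with UNC0638 stood above those with DMSO for all 3 genes. The choice of the genes rested on the KO libraries, but it was made with earlier results of these data known. Krt13 stood at 20.9, 18.5 and 13.1 normalized counts in the 3 WT DMSO libraries and at 59.0, 38.3 and 55.1 with UNC0638. Snap91 stood at 11.6, 19.7 and 5.24 with DMSO and at 60.8, 44.8 and 21.6 with UNC0638. Nlrp14 stood at 14.0, 14.8 and 6.12 with DMSO and at 93.3, 65.4 and 101 with UNC0638. The 2 groups did not overlap for any of the 3 genes, while 9.86% of the 17258 genes tested had every UNC0638 library above every DMSO library in WT and 10.0% had every one below. The groups rest on few reads, 31 to 48 in the 3 WT DMSO libraries together and 144 to 302 with UNC0638.

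**Figure D1:**
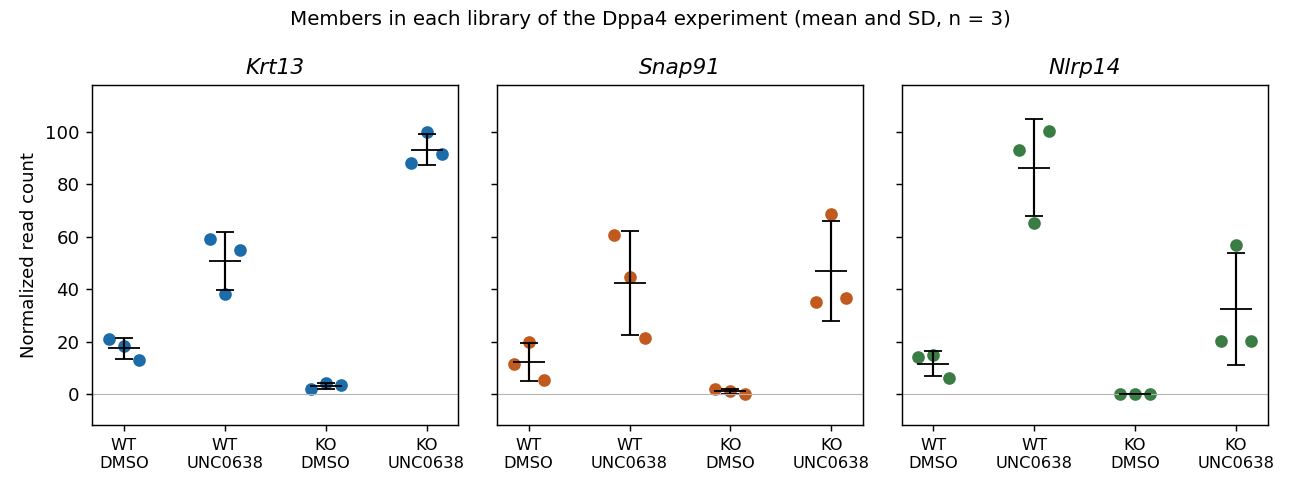
Normalized read count (y axis) of Krt13, Snap91 and Nlrp14 in the 12 libraries of the Dppa4 experiment, by group (x axis). Points are libraries, and the black marks give the mean and SD of 3 libraries. All 3 genes are lowest in KO cells with DMSO and stand higher in every KO library with UNC0638. Krt13 is highest in KO with UNC0638, at 88.3 to 99.98, and Nlrp14 is highest in WT with UNC0638, at 65.4 to 101.

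The ratio of pooled reads with UNC0638 to those with DMSO in WT was 7.93 for Nlrp14, 3.67 for Snap91 and 3.00 for Krt13. In limma, fitted on log2(normalized count + 1) over all genes tested, the WT effect of UNC0638 was 2.86 ± 0.58 (log2, SE) for Nlrp14, 1.76 ± 0.63 for Snap91 and 1.49 ± 0.42 for Krt13. None of the 3 passed the test, with Benjamini-Hochberg adjusted p values from limma of 0.457 for Nlrp14 and 0.563 for both Snap91 and Krt13. A gene was called at an adjusted p under 0.05 and an absolute log2 change of at least 1, and limma called 0 of 17258 genes (0.0%) in either direction in WT. At an unadjusted p under 0.05 it gave 1504 genes, edgeR called 0, and DESeq2 called 13 higher and 1 lower. DESeq2 called Nlrp14 in WT (2.94 ± 0.58, adjusted p = 0.00151), whereas over all the limma and edgeR alternatives the adjusted p of Nlrp14 lay between 0.161 and 0.958. DESeq2 gave adjusted p = 0.0695 for Krt13 and 0.285 for Snap91. An exact two-sided permutation test of the 3 against 3 libraries gave p = 0.1 for each gene, the smallest p that it allows.

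Without DPPA4 and without inhibitor, the genes were nearly silent. In the KO DMSO libraries Krt13 stood at 1.96, 4.08 and 3.48 normalized counts, from 2 to 4 reads per library. Snap91 stood at 1.96, 1.02 and 0 in the same libraries, which is 3 reads in all. Nlrp14 was at 0 in all 3 of them. Each gene was lower in every KO DMSO library than in every WT DMSO library, as were 16.1% of the genes tested, while 13.5% were higher in every one. By pooled reads, WT DMSO exceeded KO DMSO by 5.43-fold for Krt13 and by 10.9-fold for Snap91 (95% counting interval 3.39 to 55.4). For Nlrp14 the difference was at least 10.5-fold, with the KO group set to a floor of 3 reads over its libraries. The fitted difference, KO minus WT in DMSO, was -2.16 ± 0.42 for Krt13, -2.70 ± 0.63 for Snap91 and -3.57 ± 0.58 for Nlrp14 (log2, SE), values that share the KO DMSO libraries with the choice of the genes and have no test. Over all genes limma called 230 (1.33%) higher and 535 (3.1%) lower in KO than in WT with DMSO. With 1 library left out, these counts moved by over 1.5 times without WT DMSO replicate 2 (91 and 189), WT DMSO replicate 3 (148 and 279), KO DMSO replicate 1 (87 and 275) and, for those higher, KO DMSO replicate 2 (114).

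With UNC0638, the KO libraries reached or passed the WT level of Krt13 and Snap91 but not that of Nlrp14. Krt13 stood at 88.3, 99.98 and 91.7 normalized counts in KO, above every WT library with UNC0638. Snap91 stood at 35.0, 68.8 and 36.7, a range that overlaps the WT libraries with UNC0638. Nlrp14 stood at 20.2, 57.0 and 20.1, below every WT library with UNC0638. In KO with UNC0638 against WT with UNC0638, 11.6% of the genes tested were higher and 12.6% lower in every library. Within KO, each gene was higher in every UNC0638 library than in every DMSO library, as were 8.88% of the genes tested, while 8.03% were lower in every one. The order of the 4 groups was KO UNC0638, WT UNC0638, WT DMSO and KO DMSO for Krt13, with no overlap between neighbours in that order. For Nlrp14 the first 2 places were exchanged, again with no overlap, and for Snap91 the first 2 places were not separated. Per kilobase of exon, Krt13 was the most abundant of the 3 in KO with UNC0638, at 51.3 ± 3.30 normalized counts per kilobase (SD, n = 3), against 9.17 ± 6.01 for Nlrp14 and 5.13 ± 2.09 for Snap91. In WT with UNC0638 these values were 27.9 ± 6.04, 24.4 ± 5.25 and 4.645 ± 2.16, and the libraries of Krt13 and Nlrp14 overlapped.

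The pooled reads of KO cells rose 29.6-fold with UNC0638 for Krt13, 43.5-fold for Snap91 (95% counting interval 14.6 to 213) and at least 29.6-fold for Nlrp14, again with a floor of 3 reads. The fitted effects in KO were 4.53 ± 0.42 for Krt13, 4.65 ± 0.63 for Snap91 and 4.89 ± 0.58 for Nlrp14 (log2, SE), which placed them at rank 4, 3 and 2 of 17258 genes. This is the contrast that chose them. The effect in KO minus that in WT was 3.05 ± 0.59 for Krt13, 2.89 ± 0.90 for Snap91 and 2.03 ± 0.82 for Nlrp14. For Nlrp14 this value depends on the number added before taking logs, since its KO DMSO libraries were at 0, and it was 0.47 ± 0.63 with 4 added and 2.95 ± 0.90 with 0.5 added. No gene of the 17258 (0.0%) was called for this difference by limma, with 1076 at an unadjusted p under 0.05.

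In all, limma called 71 genes higher (0.411%) and 9 lower (0.0521%) with UNC0638 in KO. These counts rest on single libraries. With 1 library left out, the number called higher ran from 2 (without KO UNC0638 replicate 2) to 205 (without KO UNC0638 replicate 1). The number called lower ran from 0 to 168 in the same leave-outs. The number called higher also moved by over 1.5 times without KO UNC0638 replicate 3 (27), WT DMSO replicate 2 (40), WT UNC0638 replicates 1, 2 and 3 (22, 22 and 23) and KO DMSO replicates 1 and 2 (18 and 42).

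**Figure D2:**
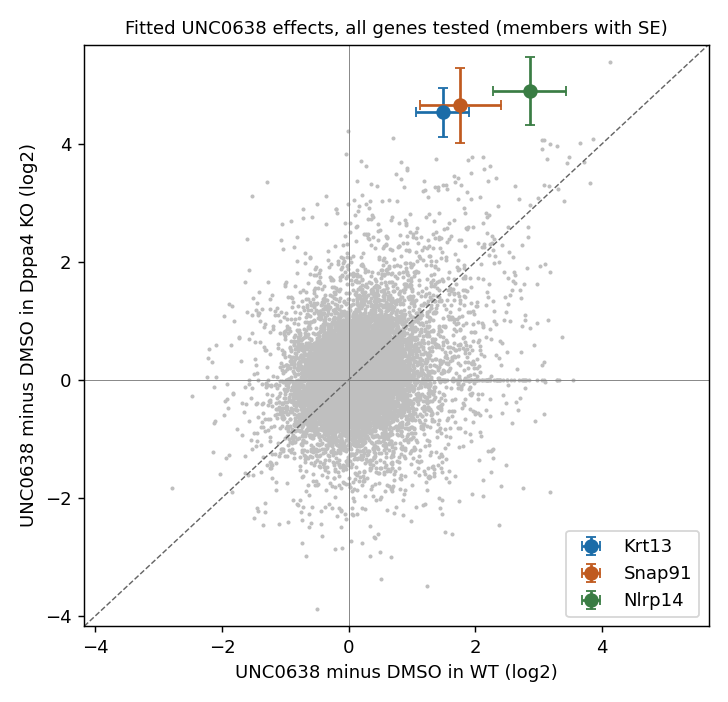
Fitted effect of UNC0638 in WT (x axis) and in Dppa4 KO (y axis), both as log2 differences from DMSO, for the 17258 genes tested (grey). Coloured points are Krt13, Snap91 and Nlrp14 with SE bars, and the dashed line marks equal effects. The 3 genes lie above the line, at 4.53 to 4.89 in KO against 1.49 to 2.86 in WT, and Nlrp14 lies farthest to the right.

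Depletion of EHMT2 protein was compared in experiments outside the KO contrast that chose the genes. The choice was made with earlier results of these data known, so the counts below may not be independent of it. For these experiments only the group means computed by the authors were used, with 3 libraries behind each, and so neither a spread nor a test can be given. After 24 h, the authors' mean of Krt13 was 44.1 normalized counts with dTAG-13 and 7.75 with DMSO, that of Nlrp14 was 85.0 and 24.8, and that of Snap91 was 85.1 and 38.0. The ratios were 5.69 for Krt13, 3.42 for Nlrp14 and 2.24 for Snap91, so that 3 of 3 were at least 2-fold higher, against 3.87% of all genes with a larger mean of at least 10 (2.43% were at least 2-fold lower). After 7 d, Nlrp14 stood at 133 against 21.1 and Krt13 at 33.1 against 9.74, while Snap91 stood at 42.8 against 35.9. Thus 2 of 3 were at least 2-fold higher at 7 d, beside 5.66% of all genes (4.9% lower), and the ratio of Snap91 was 1.19. DMSO means at 24 h and 7 d differed by at most 1.26-fold for these genes, a contrast in which 1.1% of all genes were at least 2-fold higher at 7 d and 1.69% lower. In the time course, washout and sorted experiments every DMSO mean of Krt13 was under 10. It thus entered the counts with dTAG-13 only through its dTAG-13 means.

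**Figure D3:**
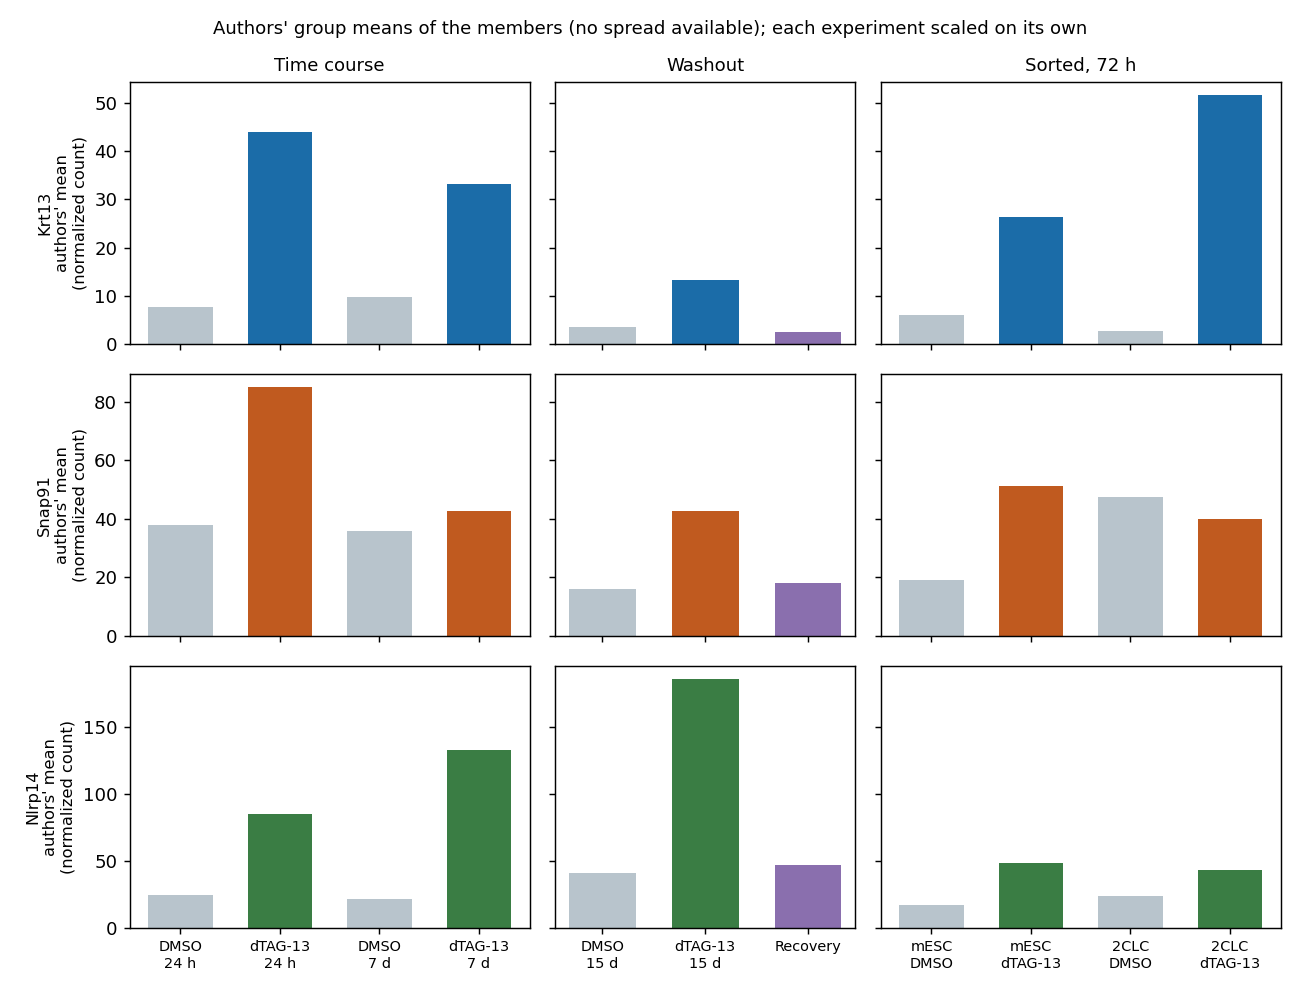
Authors' group means (normalized counts, y axis) of Krt13, Snap91 and Nlrp14 (rows) in the time course, washout and sorted experiments (columns), with one bar for each group on the x axis and no spread available. Each experiment was scaled separately, so bars compare within a panel. The means with dTAG-13 exceed those with DMSO in each pair except Snap91 in 2CLC, at 40.0 against 47.4, and the Recovery means are near those of DMSO.

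After washout the means of all 3 genes lay nearer to DMSO than to dTAG-13. At 15 d Nlrp14 stood at 186 with dTAG-13, 41.0 with DMSO and 46.7 in Recovery. Snap91 stood at 42.8, 15.9 and 18.2 in the same groups, and Krt13 at 13.2, 3.44 and 2.40. All 3 were at least 2-fold higher with dTAG-13 than with DMSO (5.77% of all genes, with 1.0% lower), and all 3 were at least 2-fold lower in Recovery than with dTAG-13 (7.35%, with 1.71% higher), comparisons that share the dTAG-13 group. Recovery differed from DMSO by 1.15-fold for Snap91 and 1.14-fold for Nlrp14, and both Krt13 means were under 10. In that contrast 1.83% of all genes were at least 2-fold higher in Recovery and 1.48% lower.

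In the sorted mESC, the authors' mean with dTAG-13 was higher than with DMSO for all 3 genes, at 26.3 against 6.07 for Krt13, 48.0 against 16.9 for Nlrp14 and 51.1 against 19.1 for Snap91. All 3 were at least 2-fold higher (6.22% of all genes, with 2.91% lower). In 2CLC the mean of Krt13 was 51.7 against 2.71, a ratio of 19.1 that ranked 3 among 18281 genes. Krt13 passed the minimum mean of 10 only through dTAG-13 here, so this ratio and rank rest on a low DMSO mean. Nlrp14 stood at 43.4 against 23.8 in 2CLC, a ratio of 1.83, and Snap91 at 40.0 against 47.4. Of the 3 genes, Krt13 was thus the only one at least 2-fold higher in 2CLC, where 6.29% of all genes were (3.52% lower). Between the 2 cell types with DMSO, Snap91 was 2.48-fold and Nlrp14 1.41-fold higher in 2CLC than in mESC, and the Krt13 means were both under 10. At least 2-fold higher in 2CLC were 17.4% of all genes, and 9.84% were lower. With dTAG-13, Krt13 was 1.97-fold higher in 2CLC, and Snap91 and Nlrp14 were 1.28-fold and 1.11-fold higher in mESC (16.5% of all genes at least 2-fold higher in 2CLC and 8.04% lower). Whether these ratios differ between the cell types was not tested.

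By limma the tested relatives of Krt13 and Snap91 gave no call with UNC0638, and 1 relative of Nlrp14 did. Of all genes limma called 0.0% in WT, and 0.411% higher and 0.0521% lower in KO. With shares this small, 0 calls in short lists do not set the relatives apart from other genes. Of 19 keratins of stratified epithelia, 4 besides Krt13 passed the filter on low counts and 0 were called with UNC0638 in WT or KO by limma, with a median KO effect of 0.60 against 0.00 over all genes (log2). At an unadjusted p under 0.05 there was 1 of these 4 in each genotype, and edgeR and DESeq2 called 0. Krt16 of this list, named after its values were seen, ran from 0 to 8.61 normalized counts in WT DMSO and 12.3 to 22.4 with UNC0638. In KO it was at 0 with DMSO and 3.23 to 7.86 with UNC0638. With dTAG-13, 1 of 4 listed keratins with a mean of at least 10 was at least 2-fold higher at 24 h, 7 d and 15 d each (3.87%, 5.66% and 5.77% of all genes). It was Krt14 at 24 h and 7 d and Krt12 at 15 d, both named after their values were seen. Their DMSO means at these times were under 10, so they entered the counts only through their dTAG-13 means. In sorted mESC and in 2CLC 0 of 2 were. Of 6 tested keratins of simple epithelia and 18 tested genes of squamous epithelium, 0 were called in either UNC0638 contrast by limma, edgeR or DESeq2, with 3 of the 24 at an unadjusted p under 0.05 in WT and 5 in KO. Of 28 tested synaptic vesicle genes and 28 tested genes of clathrin coats and endocytosis, 0 were called in either contrast, with median KO effects of -0.20 and -0.06. Neither edgeR nor DESeq2 called any of them, and at an unadjusted p under 0.05 there were 3 in WT and 4 in KO. Among 10 tested NLRP family genes besides Nlrp14, 1 was called higher in KO, beside 0.411% of all genes, and 0 in WT. At an unadjusted p under 0.05 there were 4 in KO and 2 in WT, edgeR called 1 and 0, and DESeq2 called 2 and 1.

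The gene called by limma was Nlrp4f, an NLRP gene of oocytes. Its KO libraries ran from 4.08 to 22.1 normalized counts with DMSO and from 73.3 to 140 with UNC0638, an effect of 3.07 ± 0.53 (log2, SE, adjusted p = 0.0232 in limma). The call was lost with no filter (0.06) and without KO DMSO replicate 1 (0.0609), KO DMSO replicate 2 (0.0513) or KO UNC0638 replicate 2 (0.155). In WT its mean was 126 with UNC0638 and 18.3 with DMSO, which DESeq2 called and limma and edgeR did not. Unlike Nlrp14 it was present in KO cells with DMSO. Its authors' mean after 24 h was 307 with dTAG-13 and 238 with DMSO, a difference of less than 2-fold. In the same order the Nlrp4f means were 487.9 and 282.5 at 7 d and 231.0 and 274.5 at 15 d. They were 119.6 and 125.5 in sorted mESC and 144.3 and 107.6 in 2CLC. Nlrp4c, named after its values were seen, stood at 39.3 with dTAG-13 and 11.3 with DMSO at 24 h and at 241 and 27.5 at 15 d. In the Dppa4 experiment its mean was 7.81 in WT DMSO, 68.2 in WT UNC0638, 0 in KO DMSO and 14.1 in KO UNC0638, and limma did not call it (adjusted p from limma of 0.563 in WT and 0.102 in KO), though DESeq2 called it in KO. Some NLRP genes are close copies of one another, and reads that fit several copies were placed at random. How many reads of each gene this concerns was not measured, so single values among such copies are uncertain.

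Among genes of oocytes and germ cells, limma called 1 of each list with UNC0638 in KO. Besides Nlrp14, 1 of 12 tested oocyte genes was called higher in KO, again Nlrp4f, and 0 lower (0.411% and 0.0521% of all genes), with 2 at an unadjusted p under 0.05, and DESeq2 also called Sohlh2. In WT limma called 0 of the 12, with 1 at an unadjusted p under 0.05, edgeR 0 and DESeq2 1. Of 22 tested germ cell and meiosis genes 0 were called higher and 1 lower in KO (0.0521% of all genes), Majin, a component of the telomere attachment complex of meiosis. The Majin group means were 13.9 normalized counts in KO DMSO and 0 in KO UNC0638, and its effect was -3.88 ± 0.73 (log2, SE, adjusted p = 0.0358 in limma). That call was lost with no filter (0.06), without any 1 of the KO DMSO replicates (0.0568 to 0.111), without WT UNC0638 replicate 1 or 3 (0.0559 and 0.0577) and without KO UNC0638 replicate 2 or 3 (0.149 and 0.0693). Of these 22 genes limma, edgeR and DESeq2 called 0 in WT and 0 had an unadjusted p under 0.05, and in KO 6 had an unadjusted p under 0.05 and DESeq2 called 1 besides Majin, Rpl10l. Of 10 genes of the EHMT complex and its partners, limma, edgeR and DESeq2 called 0 in either genotype, with 0 in WT and 1 in KO at an unadjusted p under 0.05.

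Many genes of the 2-cell embryo, like Krt13, Snap91 and Nlrp14, had lower levels in KO than in WT cells with DMSO. Of 16 tested 2-cell genes 9 were called lower in KO than in WT with DMSO (beside 3.1% of all genes). With UNC0638 limma called 0 of them in either genotype, beside 0.0% of all genes in WT and 0.411% higher and 0.0521% lower in KO. Their median effect was 2.28 in WT and 0.00 in KO (log2). At an unadjusted p under 0.05 there were 10 of the 16 in WT and 0 in KO, and edgeR and DESeq2 called 0. Zscan4c and Zscan4d, checked as 2-cell-like markers, were at 0 in all 6 KO libraries. In the time course, 22 of 22 listed 2-cell genes with a mean of at least 10 had an authors' mean at least 2-fold higher with dTAG-13 at 7 d (5.66% of all genes). Only 11 of the 22 reached a mean of 10 with DMSO at 24 h or 7 d. The others entered this count only through their dTAG-13 mean, so the count is in part fixed by the minimum. No test of the 3 genes against this list was made, since their rise with UNC0638 in KO is what chose them. That choice also used the KO DMSO libraries, so the low level of the 3 genes there is not independent of it.

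Markers of the cell types in which these genes are best known ranged from 0 (Oosp1) to 3423 (Stmn2) normalized counts. Of 8 squamous epithelium markers, Krt4, Krt15 and Trp63 reached at most 0.874, 6.11 and 1.75 normalized counts in any library, and Krt5, Krt14 and Dsg3 at most 10.4, 19.7 and 19.4. The highest values of Krt5 and Dsg3 lay in WT with UNC0638, and that of Krt14 in WT with DMSO. The summed level of these 8 was 1386 to 2761 in WT DMSO, 1146 to 2763 in WT UNC0638, 874 to 1250 in KO DMSO and 750 to 1347 in KO UNC0638, mostly from Sfn and Perp. Of 8 neuron markers, Snap25 reached at most 2.62, Syt1 20.0, Rbfox3 33.2, Map2 112 and Elavl3 143, and the sums were 4416 to 4774, 4005 to 4339, 3756 to 4225 and 2887 to 5422 in the same order, mostly from Stmn2 and Tubb3. The 8 oocyte markers summed to 17.5 to 39.3, 8.41 to 34.3, 8.81 to 33.7 and 5.52 to 25.8, with Oosp1 at 0 in all 12 libraries and Zp3 at up to 36.7. The ranges with DMSO and with UNC0638 overlapped in both genotypes for the squamous and oocyte sums. The neuron sum was lower with UNC0638 in every WT library and overlapped in KO, and its part in the Snap91 values was not tested. The sum of 8 feeder fibroblast markers was 1969 to 2807, 1842 to 2432, 1080 to 1494 and 1201 to 1840, lower in KO than in WT DMSO, and its part in the lower KO levels was not tested. The sum of 8 2-cell-like markers was 62.8 to 1294 in WT DMSO, 535 to 4918 in WT UNC0638, 0 in KO DMSO and 0 to 3.49 in KO UNC0638. These markers were thus at or near 0 in the KO libraries where Krt13, Snap91 and Nlrp14 were high, and their part in the WT values was not tested.

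Few of the genes next to them on the chromosomes could be tested, and those gave no call with UNC0638. Of the 18 nearest genes, 3 on each side of each gene, 9 were at 0 in all 12 libraries and 5 more never passed 6.11 normalized counts. The 4 that were tested, Krt19, Prss35, Gm3765 and Rbmxl2, gave 0 calls with UNC0638 in WT or KO by limma, by edgeR and by DESeq2, and 0 had an unadjusted p under 0.05. Of all genes limma called 0.0% in WT, and 0.411% higher and 0.0521% lower in KO. With shares this small, 0 calls among 4 genes do not set the neighbours apart from other genes. Krt19, a keratin of simple epithelia whose start lies 27099 bases from that of Krt13, had an effect of 0.13 ± 0.39 in WT and 0.18 ± 0.39 in KO (log2, SE). Rbmxl2, 42455 bases from Nlrp14 by start sites, had group means of 2338 to 2955 normalized counts and effects of -0.27 ± 0.19 and -0.11 ± 0.19. Gm3765, a processed pseudogene that begins 33199 bases from the start of Nlrp14, had effects of 0.08 ± 0.61 and 0.06 ± 0.61. Prss35, a protease-like gene beside Snap91, had effects of -0.10 ± 0.48 and 0.41 ± 0.48.

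**Figure D4:**
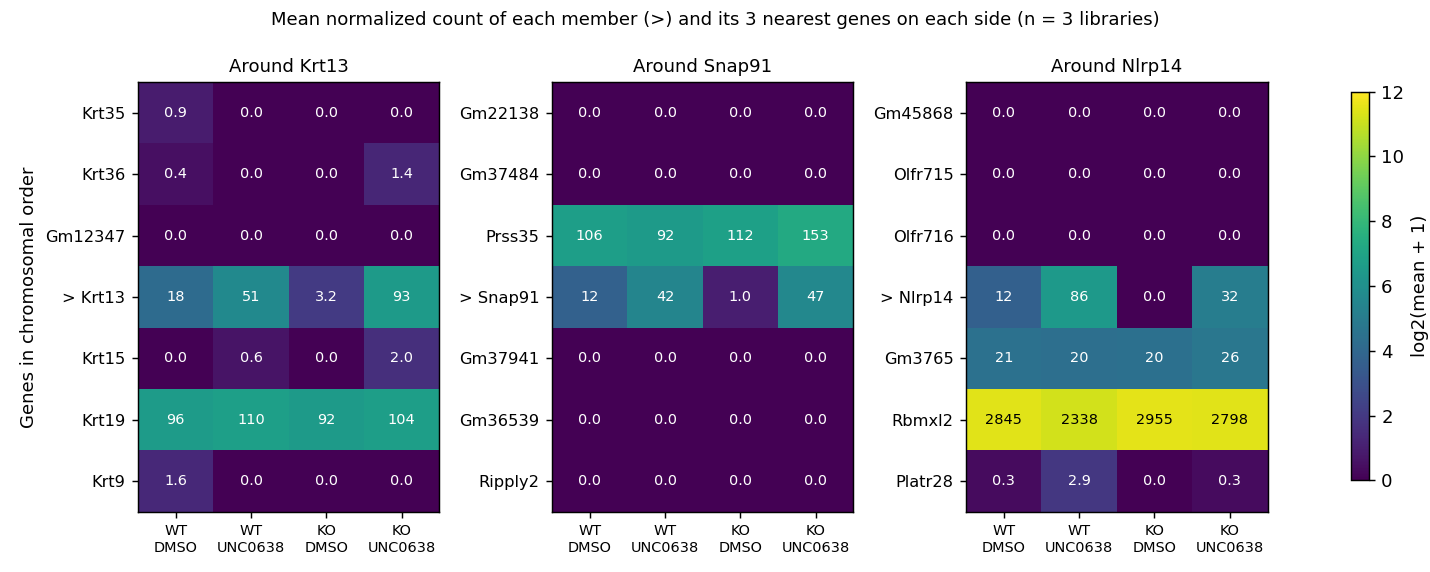
Mean normalized count of 3 libraries (printed in each cell, colour as log2 of the mean plus 1) for Krt13, Snap91 and Nlrp14 (marked >) and their 3 nearest genes on each side in chromosomal order (rows), in the 4 groups of the Dppa4 experiment (columns). The marked rows change between columns, while Krt19, Prss35, Gm3765 and Rbmxl2 have means within 92.0 to 110, 91.7 to 153, 19.8 to 25.9 and 2338 to 2955.

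The profiles of the 3 genes were alike to unequal degrees. Over the 12 libraries, Pearson's r of log2(normalized count + 1) was 0.93 between Krt13 and Snap91, 0.93 between Snap91 and Nlrp14 and 0.90 between Krt13 and Nlrp14. These values describe libraries that share treatments and genotypes, and the genes were chosen for a shared response in the KO libraries among them. Ranked by r among all genes tested, Snap91 was 3 and Nlrp14 11 from Krt13, Nlrp14 was 1 and Krt13 2 from Snap91, and Snap91 was 9 and Krt13 41 from Nlrp14. The 5 genes most like Krt13 were Slc35f4 and Glrx (both r = 0.937), Snap91, D630023F18Rik (0.917) and Srp9 (0.916). Those most like Snap91 were Nlrp14, Krt13, Gm50383, Baz1a (both 0.93) and Ripor2 (0.92). Those most like Nlrp14 were Baz1a (0.949), Pdha2 (0.944), Myh6 (0.941), Ptp4a2 (0.937) and Tmprss11d (0.934). Baz1a, a subunit of a chromatin remodelling complex, was in the lists of both Snap91 and Nlrp14, with means of 145 in WT DMSO, 287 in WT UNC0638, 60.3 in KO DMSO and 206 in KO UNC0638.

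Pdha2, the testis form of a pyruvate dehydrogenase subunit, was close to Nlrp14 in the Dppa4 experiment, with means of 16.6 and 79.7 in WT and 2.81 and 41.6 in KO. Its authors' mean at 15 d was 178 with dTAG-13, 15.1 with DMSO and 18.2 in Recovery. Myh6, a cardiac myosin heavy chain, stood at 71.3 with dTAG-13 and 17.3 with DMSO at 24 h. Of the 11 genes named here besides the 3, 8 had a mean of at least 10 at 24 h and 3 of them were at least 2-fold higher with dTAG-13 (3.87% of all genes). At 7 d 2 of 8 were (5.66%), and at 15 d 6 of 10 were (5.77%). Pdha2 at 24 h and 7 d, and Slc35f4, Ripor2 and Tmprss11d at 15 d, had DMSO means under 10. They entered these counts only through their dTAG-13 means. The 11 were named for their likeness to genes chosen by their rise with UNC0638, so the counts are not independent of that choice.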

How the data were processed

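Processing notes list Trim Galore 0.6.7, STAR 2.7.10 and DESeq2 1.34.0 and GRCm38 (mm10). By the methods, introns were not allowed in the alignment, so reads over splice junctions could not align, multimapping reads got 1 random place, and reads were counted with TEcounts on GENCODE vM25. The deposited signal values are read counts divided by DESeq2 size factors, per library for the Dppa4 experiment and as group means of the authors for the other 3 experiments. Their tables of fold changes, p-values and repeats were not used.

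For the Dppa4 experiment 100% of values came out as whole reads (tolerance 0.0001). Genes passing filterByExpr of edgeR 4.0.16 (17258 of 55401, all 3 members included) were fitted with limma 3.58.1 (R 4.3.3) in a model of 4 groups on log2(normalized count + 1), Benjamini-Hochberg adjusted. This scale understates changes of low genes. Alternatives were edgeR's quasi-likelihood test and DESeq2 1.42.0 on the reads, TMM scaling, pseudocounts of 0.5 and 4, other filters, a replicate block, and each library left out. On simulated data limma found 97.5% (WT contrast) and 98.5% (KO contrast) of 200 genes changed 4-fold among 15780, with 7 and 11 false calls. The simulation used independent libraries, a dispersion of 0.05 and genes with a WT DMSO mean of at least 10. Whether the real libraries match that dispersion was not tested, so these shares do not tell how many changed genes were missed here. Same-numbered WT libraries deviated together, in part weakly (r of 0.246, 0.103 and 0.431), and were taken as paired by number. Those of KO did not do so in every pair (0.154, -0.092 and 0.013). The main fit and the permutation test leave this pairing out, and the replicate block includes it. Where the labels do not show separate cultures, p-values measure the spread between these samples. Counting intervals and floors of 3 reads cover counting error only. Group means were compared by ratio among genes with a larger mean of at least 10, within 1 table.

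Positions are from GENCODE vM21, matched by identifier, and kilobases from the union of its exons. RefSeq promoters matched 2 of the 3 genes. The genes named are the 3 members, their 3 nearest genes on each side, the 5 highest in Pearson's r, list genes called in an UNC0638 contrast and the perturbation checks. The members and lists were chosen with earlier results of these data known.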

Additional observations from a re-analysis of the deposited data

How the results depend on the processing

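The WT effects kept their direction under every alternative, between 1.30 and 1.67 for Krt13, 1.31 and 2.18 for Snap91 and 2.49 and 3.06 for Nlrp14 with 1 library left out, and only DESeq2 called any of the 3, Nlrp14 at 2.94. Genes called in WT numbered 13 higher and 1 lower with DESeq2, and 0 to 1 higher without 1 library (1 without WT DMSO replicate 3 or WT UNC0638 replicate 3). Genes called in KO, 71 higher and 9 lower, became 32 and 5 with edgeR, 241 and 44 with DESeq2, 12 and 0 with no filter, 4 and 0 at an adjusted p under 0.01, and 2 to 205 and 0 to 168 without 1 library. KO against WT in DMSO, 230 and 535, became 75 and 183 at 0.01, and 87 to 330 and 189 to 656 without 1 library. Genes called for the difference of effects stayed at 0 higher and 0 to 1 lower (1 without WT UNC0638 replicate 3). The replicate block gave 131 higher and 24 lower in KO, where the numbers do not pair the libraries, and it changed no call of the 3 genes in WT, where adjusted p was 0.372 for Krt13 and Snap91 and 0.325 for Nlrp14.

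The fitted effect in KO became, with DESeq2, 4.89 (Krt13), 5.50 (Snap91) and 7.39 (Nlrp14), with edgeR 8.05 for Nlrp14, with a pseudocount of 0.5 5.86 for Nlrp14, and with a pseudocount of 4 3.77, 3.30 and 3.04 in that order. KO minus WT in DMSO became -3.53 (Snap91) and -5.89 (Nlrp14) with DESeq2, -6.55 for Nlrp14 with edgeR, -4.50 for Nlrp14 at 0.5, and -1.58, -1.61 and -1.91 at 4. The difference of effects became 3.66 (Snap91) and 4.45 (Nlrp14) with DESeq2, 5.12 for Nlrp14 with edgeR, 2.95 for Nlrp14 at 0.5, and 2.43, 1.78 and 0.47 at 4. The KO DMSO groups held 0 to 9 reads of each of these genes, and the cause of the moves was not tested. Adding 1 to each authors' mean left each ratio of the 3 genes within 1.5 times, and a minimum mean of 1 or 50 changed the share of genes at least 2-fold apart, from 3.87% to 9.52% and 1.61% for those higher at 24 h.

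The alternatives for Nlrp4f, Majin and the neighbouring genes were chosen after seeing the data. The calls of the first 2 that were lost are given beside their values, and the neighbouring genes gave 0 calls under each alternative.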
